A study of Mus musculus with 6 samples.

Results

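The keratins are described here in MLE-12 cells, a mouse lung epithelial line transformed with SV40 large T antigen, that carried either an NR4A1 expression plasmid or the empty vector. The genes were taken by name: every row of the expression table named Krt followed by digits only, which gave 47 rows, and 5430421N21Rik, a row beside Krt86 on chromosome 15. That is 48 of the 34745 genes in the table, 23 of them on chromosome 15, where the type II keratins lie, and 25 on chromosome 11, where the type I keratins lie. The set was chosen by the counts of 5430421N21Rik and other keratins in these same 6 libraries, NR4A1 overexpression against vector control, so the differences between groups given for keratins below are descriptions and carry no p-value.

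RNA sequencing was performed on 6 libraries, 3 per group. In the NR4A1 overexpression group, MLE-12 cells received by lipofection the plasmid pCMV-SPORT6 with the NR4A1 open reading frame, which had been amplified from C57BL/6 mouse lung. In the vector control group, the same line received pCMV-SPORT6 without the insert. Both groups were transfected, untransfected cells were not analysed here, and the share of cells that took up plasmid is not known from these data.

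Keratins are the intermediate filament proteins of epithelial cells. A filament is built from heterodimers of an acidic type I chain and a basic type II chain, so each keratin has partners of the other type. Krt8, Krt18, Krt19, Krt7 and Krt20 belong to simple epithelia such as those of the lung and gut, Krt5, Krt14, Krt10, Krt4 and Krt13 to stratified epithelia, and another group, the hair keratins, builds the hard fibre of the hair shaft, where keratin-associated proteins cross-link it. NR4A1 is an orphan nuclear receptor of the immediate early response that binds DNA as a monomer at the element AAAGGTCA.

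The row 5430421N21Rik (ENSMUSG00000067613) is a hair keratin. The same identifier is named Krt83 in GENCODE M21, and the row that the table names Krt83 (ENSMUSG00000047641) is Krt87 there, so both names of the table are kept below. The first 30 coding bases of 5430421N21Rik and of the 3 hair keratin genes nearest to it in sequence are shown because their likeness bears on which row a read is counted in. All lie in exon 1 of their genes, on GRCm38 with GENCODE M21 transcripts, and are written 5′ to 3′ on the coding strand. Capitals mark bases that differ from 5430421N21Rik.
5430421N21Rik, chr15:101491420-101491449, minus strand: atgacctgtggctttcgaactggaaacttc
Krt81, chr15:101463668-101463697, minus strand: atgacctgtggAtCAGgaTTCTgTGGcCGc
Krt86, chr15:101473551-101473580, plus strand: atgacTtgCggAtCCTACTGtggTGGcCGT
Krt83 of the table, chr15:101438741-101438770, minus strand: atgTcTtgCTTctCCTCCCGCCTCGGAGCc

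These starts are the variable head of the protein, and 13 of the 30 bases differed in Krt81, 16 in Krt86 and 21 in the table's Krt83. Over the whole coding sequence the 4 genes were much closer. The coding sequence of 5430421N21Rik, 1437 bases long, was 93.2% identical to that of Krt81, 91.5% to Krt86 and 87.3% to the table's Krt83. Identity was 65.9% with Krt82 and 58.6% with Krt84, the remaining type II hair keratins, and 61.8% with Krt8. Of the 50-base words in the 5430421N21Rik transcripts, 18.8% also occurred in Krt86, and of those of Krt86, 35.6% occurred in Krt81 and 17.6% in 5430421N21Rik. How the authors counted reads that fit more than 1 gene is not given in the sources used here, so the levels of these genes are uncertain to that extent.

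Few keratins were counted at all in this line. Of the 48 genes, 28 had 0 counts in all 6 libraries, 14 on each chromosome, and 10 reached at least 10 counts in a library. All 6 keratins of simple epithelia were counted, against 9 of 19 of stratified epithelia, 3 of 6 type II hair keratins, 2 of 7 type I hair keratins and 0 of 9 keratins of the inner root sheath, the layer that moulds the growing hair. Krt222, a divergent keratin, was at 0. A library with 0 counts allows up to 3 counts, which was 0.170 to 0.203 CPM (counts scaled to the library total with TMM factors) in these libraries, a limit that covers counting error only.

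Total counts lay between 15019038 and 17574340 per library, and 12941 genes passed the filter on low counts, with 22 past the threshold as higher under NR4A1 overexpression and 0 as lower. At an unadjusted p under 0.05 with the same fold these were 144 and 17 genes, and with DESeq2 71 and 2. The targeted gene Nr4a1 had 50660, 60093 and 68555 counts under NR4A1 overexpression and 428, 510 and 463 in the vector controls. The plasmid's insert is counted on the same row. Lung epithelial markers were present in all libraries, with Nkx2-1 at 946 to 1445 counts and Sftpc at 1013 to 1389, whereas Sftpa1 and Cldn18 were at 0 and Epcam was at 2 to 22. NR4A1 overexpression replicate 2 stood apart in genes of other cell types. Its summed CPM was 318 over 5 smooth muscle markers, against 1.49 to 2.72 in the other libraries, 108 over 7 endothelial markers, against 7.81 to 9.69, and 1554 over 8 fibroblast markers, against 917 to 1041. The summed CPM was 3.09 against 1.90 to 3.22 over 7 rows of immune markers and 193 against 169 to 231 over 3 mesothelial markers. Most of the fibroblast sum outside replicate 2 was Dcn, at 903 to 1029 CPM there and 877 in replicate 2. Most of the endothelial sum outside replicate 2 was Tek, at 6.08 to 7.34 CPM there and 5.30 in replicate 2.

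Measured per length, in the deposited FPKM values (counts scaled by gene length and library total), 3 keratins carried the signal of the vector controls. Krt19, the type I keratin without a tail domain, stood at 227 ± 22.6 FPKM (SD, n = 3) and ranked 121 to 136 among all genes. Krt8, the type II keratin of simple epithelia, stood at 122 ± 4.32 FPKM and ranked 257 to 277, and Krt80, a type II keratin of differentiating epithelia, at 22.8 ± 1.39 FPKM and 2032 to 2336. The next keratins were Krt13 at 0.553 ± 0.0455 FPKM, Krt10 at 0.544 ± 0.239, Krt18 at 0.432 ± 0.402 and Krt7 at 0.391 ± 0.0475, and the libraries of each neighbour in this order overlapped. The place of Krt7 depends on its gene length, which the deposited values imply to be 8.59 kb, against 1.97 kb for Krt13. In CPM, Krt7 was above them in the controls, at 3.34 against 1.13 for Krt10, 1.08 for Krt13 and 0.601 for Krt18. Below them was 5430421N21Rik at 0.117 ± 0.0585 FPKM. Krt19 and Krt8 together held 89.2 to 94.7% of all keratin counts over the 6 libraries, and all keratins together 0.0632 to 0.0850% of the library.

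**Figure D1:**
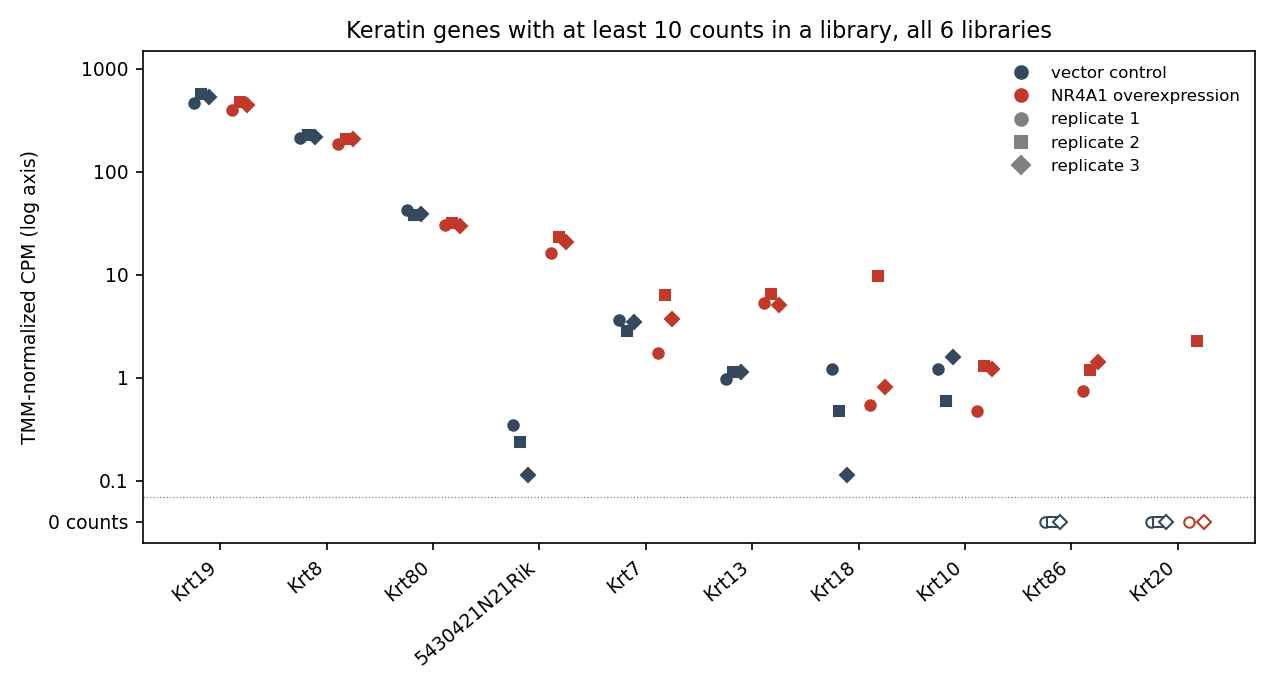
TMM-normalized CPM (log axis) of the 10 keratin genes with at least 10 counts in a library, each library being 1 point, with vector controls in dark blue and NR4A1 overexpression in red, and libraries at 0 counts drawn open below the dotted line. The points of 5430421N21Rik, Krt13 and Krt86 lie higher under NR4A1 overexpression without overlap, and those of Krt80 and Krt8 lower without overlap. Krt18 and Krt20 have 1 high point each, NR4A1 overexpression replicate 2.

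Krt8 and Krt18 form the usual pair of simple epithelia, yet Krt18 was barely counted in these cells. Its FPKM ranked 11072 to 14078 among all genes in the vector controls, and the ratio of Krt8 to Krt18 in FPKM ran from 136 to 1487 over the 5 libraries other than NR4A1 overexpression replicate 2, where it was 16.6. Krt19, the other type I chain of simple epithelia, exceeded Krt8 by 1.65 to 1.95 times in FPKM in all 6 libraries. Of the 50-base words of Krt8, 26.9% also occur in the pseudogene Krt8-ps, while 0.72% of those of Krt18 occur in another gene and none of Krt19 do on the same strand.

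The fold changes of 9 keratins could be fitted, and the remaining 39 did not pass the filter on low counts. Of the 9, 2 passed the threshold as higher under NR4A1 overexpression (adjusted p under 0.05 and at least 2-fold in edgeR's quasi-likelihood test), 5430421N21Rik and Krt13, where 0.17% of all tested genes did, and 0 as lower, where 0% did. All 3 NR4A1 libraries lay above all 3 vector controls for 3 keratins, 5430421N21Rik, Krt13 and Krt86, against 6.69% of all tested genes, and below them for 2, Krt8 and Krt80, against 6.22%. The groups overlapped for the other 4. The same contrast chose the genes, so nothing is read from these counts. The median log2 fold change of the 9 was 0.25, beside 0.01 over all tested genes. That median is the value of Krt7, which was -0.28 without NR4A1 overexpression replicate 2, and nothing is read from it either.

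Among the hair keratins, 5430421N21Rik had 240, 390 and 363 counts under NR4A1 overexpression and 6, 4 and 2 in the vector controls. In CPM these were 16.2, 23.2 and 20.9 against 0.347, 0.238 and 0.113, and the means of 20.1 ± 3.57 and 0.233 ± 0.117 CPM (SD, n = 3 each) differed 86.4-fold. The lowest NR4A1 library was far above the highest control, and the fitted log2 fold change was 6.39 with an SE of 0.323. In FPKM the gene went from the eighth place among keratins to the fourth, at 9.96 ± 1.80 under NR4A1 overexpression. With each library left out in turn the log2 fold change ran from 6.06 to 6.79. With at most 6 counts in a control, the gene entered the fit through the NR4A1 libraries.

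Krt86, a type II hair keratin on the opposite strand, had 11, 20 and 25 counts under NR4A1 overexpression and 0 in each vector control. Its mean under NR4A1 overexpression was 1.13 ± 0.354 CPM, at least 6.47-fold higher than 3 counts per control library. No control library counted a single read of the gene. It too entered the fit through the NR4A1 libraries alone. The FPKM of 5430421N21Rik exceeded that of Krt86 by 21.3, 19.1 and 14.2 times in the 3 NR4A1 libraries.

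The other hair keratins were near or at 0. Krt81, whose coding sequence was nearest to 5430421N21Rik, had 3 counts in NR4A1 overexpression replicate 1 and 0 elsewhere. The table's Krt83, Krt82 and Krt84 had 0 counts in all libraries. Of the type I hair keratins, which supply the partner chains of the hair shaft, Krt31 and Krt36 had at most 2 counts in a library, and Krt32, Krt34, Krt35, Krt39 and Krt40 had 0. Of 57 rows for keratin-associated proteins, 54 were at 0 in all libraries, 56 had no library above 3 counts, and the highest count was 10, for Krtap1-5 in NR4A1 overexpression replicate 3. Krtap1-5 had 1, 3 and 10 counts under NR4A1 overexpression and 7, 5 and 4 in the controls, and Krtap3-2 had 2, 2 and 0 against 0. Neither could be tested.

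Markers of keratinocytes and hair follicles did not separate the groups. Over 15 rows their summed CPM was 11.2 to 12.6 in the NR4A1 libraries and 12.2 to 14.2 in the controls, of which Sbsn, a secreted protein of the suprabasal epidermis, made up 8.87 to 11.9 CPM. Of the 9 genes listed, 3 were at 0 everywhere, Flg (7 rows), Krtdap and Dsg3, which belong to the differentiating epidermis and its adhesion. Tchh, the trichohyalin of the inner root sheath, had 9, 46 and 11 counts under NR4A1 overexpression and 24, 23 and 9 in the controls.

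5430421N21Rik lies on chromosome 15 at 101485131 to 101491512 on the minus strand, and Krt86 at 101473478 to 101479983 on the plus strand (GRCm38). Their 3′ ends face each other across 5.15 kb. The type II cluster spans 101349571 to 102032026, and Nr4a1 lies on the same chromosome at 101266846 to 101274792. Krt80 begins 74.8 kb past the end of Nr4a1, Krt86 199 kb and 5430421N21Rik 210 kb. Krt7, the table's Krt83 and Krt81 lie between Krt80 and Krt86. Krt18, a type I chain, is the exception to the division by chromosome and lies at the far end of the type II cluster, beside Krt8.

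The neighbours were tested because the keratin rule did not use them. Some keratin rows have names that end in a letter, or are named Krt and digits only in GENCODE M21. These were left out of the 48 and counted as neighbours. There were 4 at the type II cluster (Krt6a, Krt6b, 1700011A15Rik and 4732456N10Rik) and 2 at the type I cluster (Krt33a and Krt33b). Their highest count was 1, and 0 of them could be tested. Of 43 genes other than Nr4a1 that lie within 500 kb of the type II cluster, 24 were tested, and 0 passed the threshold in either direction by edgeR's quasi-likelihood test with Benjamini-Hochberg adjustment. All 24 lay outside the cluster itself, so no neighbour among the hair keratins was tested. Their smallest adjusted p was 0.761, and their log2 fold changes lay between -0.26 and 0.29, with a median of -0.05. Nr4a1 itself passed at a log2 fold change of 7.07 (SE 0.136, adjusted p = 2.13e-06), from 27.1 ± 2.94 CPM in the controls to 3651 ± 275. The nearest tested genes outside the cluster were Atg101, an autophagy gene 58.6 kb before it, with a log2 fold change of -0.18 (SE 0.194, adjusted p = 0.923), and Eif4b, a translation initiation factor 41.7 kb beyond it, with -0.02 (SE 0.0702, adjusted p = 0.976), both with either sign over the alternatives.

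**Figure D2:**
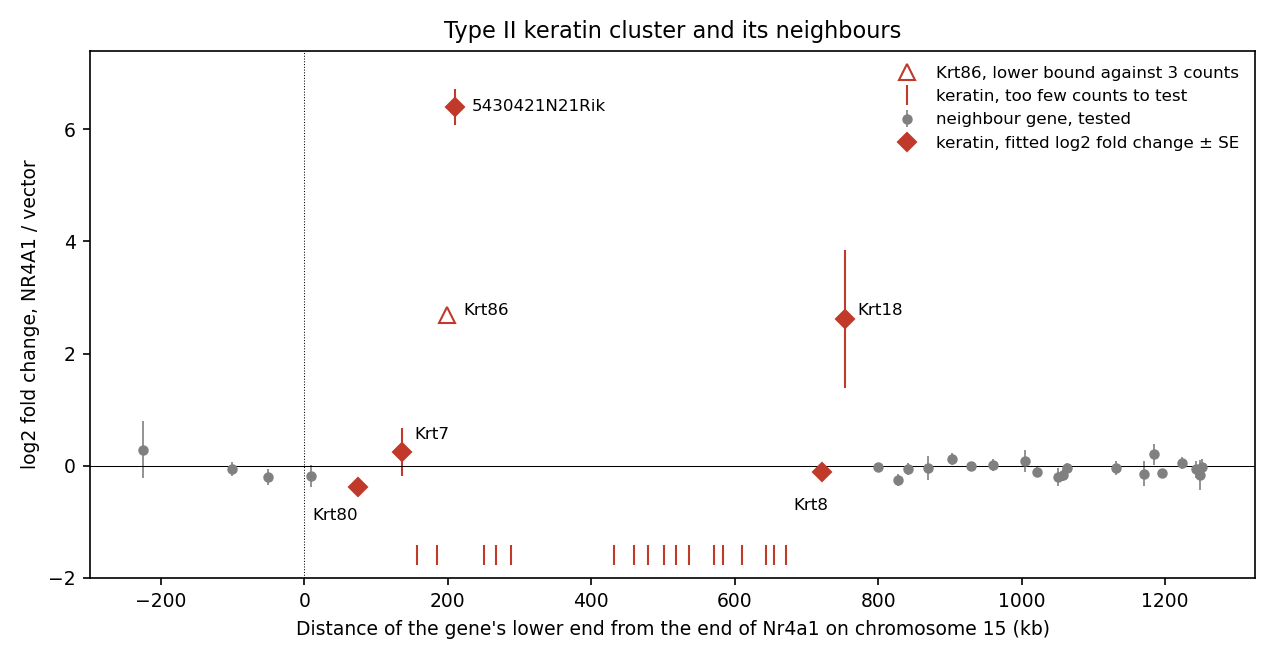
Log2 fold change of NR4A1 over vector against the distance of each gene's lower end from the end of Nr4a1 on chromosome 15, in kb, with keratins as red diamonds, neighbours as grey points and fitted values with 1 SE as bars. 5430421N21Rik stands at 6.39, the open triangle of Krt86 is a lower bound against 3 counts, red ticks are keratins with too few counts to test, and the 24 neighbours lie between -0.26 and 0.29. Nr4a1 itself is not drawn.

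Krt13, the type I keratin that pairs with Krt4 in the lining of mouth and oesophagus, had the largest fitted difference on chromosome 11. It had 79, 109 and 88 counts under NR4A1 overexpression and 17, 19 and 20 in the vector controls. In CPM it stood at 5.63 ± 0.750 against 1.08 ± 0.0862, a ratio of 5.20, and the fitted log2 fold change was 2.37 with an SE of 0.215. The libraries of each group lay close together and the groups were well apart. No 50-base word of Krt13 occurred in another gene. Its threshold call was lost in the fit with the replicate number as a block, and when any single library other than NR4A1 overexpression replicate 2 was left out, while its log2 fold change stayed between 2.26 and 2.43. Krt4, its usual partner, had 0 counts in all libraries, and Krt13 itself stayed far below Krt19, at 2.84 ± 0.375 against 188 ± 18.7 FPKM under NR4A1 overexpression.

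Krt80, in contrast, was lower under NR4A1 overexpression in every library. It had 453, 541 and 523 counts against 746, 642 and 693 in the controls, or 31.0 ± 1.06 against 40.2 ± 2.58 CPM. The log2 fold change was -0.38 (SE 0.0811), short of a 2-fold change. Krt8 had 2767, 3501 and 3610 counts against 3681, 3795 and 3835, or 201 ± 12.4 against 219 ± 6.86 CPM, with a log2 fold change of -0.12 (SE 0.0739). The 2 groups of Krt8 did not overlap, but its highest NR4A1 library, 208 CPM, was close to the lowest control, 213.

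Krt19 had 5887, 8096 and 7747 counts under NR4A1 overexpression and 8134, 9551 and 9474 in the controls. In CPM it was at 442 ± 42.3 against 525 ± 50.4, with a log2 fold change of -0.25 (SE 0.105). The groups overlapped, since NR4A1 overexpression replicate 2 at 482 CPM was above vector control replicate 1 at 470. Krt10, the suprabasal keratin of the epidermis, had 7, 22 and 21 counts against 21, 10 and 28, and its groups overlapped too, with a log2 fold change of -0.17 (SE 0.491).

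**Figure D3:**
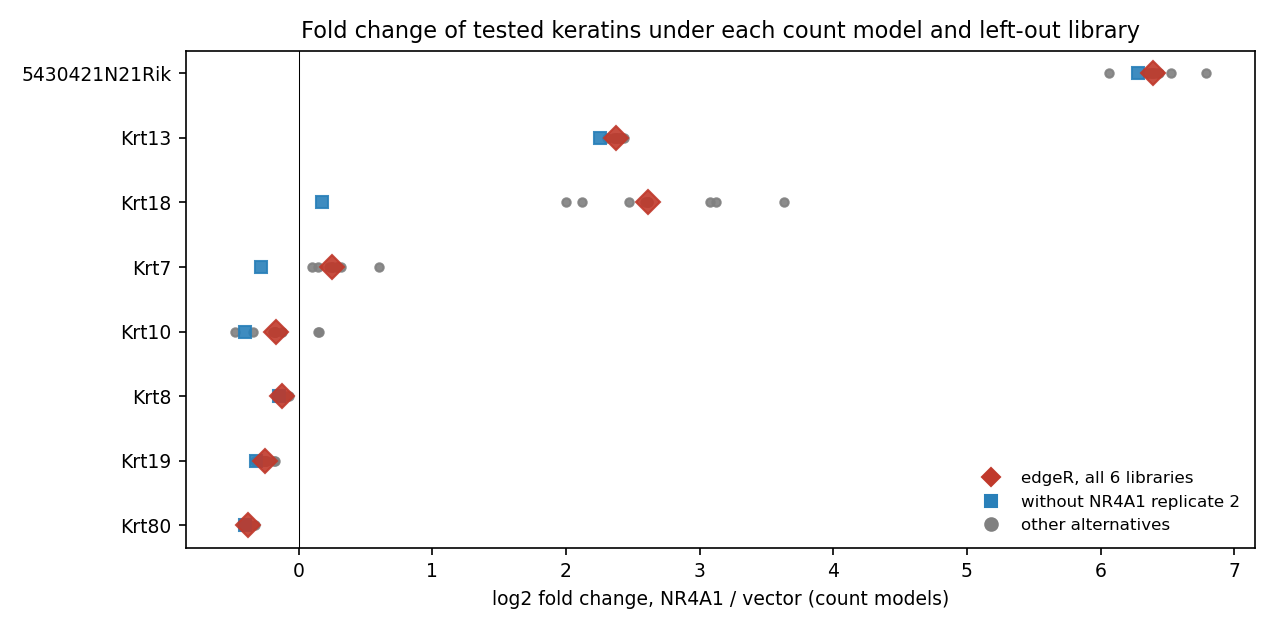
Fitted log2 fold change, NR4A1 over vector, of 8 tested keratins under edgeR with all 6 libraries (red diamonds), without NR4A1 overexpression replicate 2 (blue squares) and under the other count models and left-out libraries (grey points). Krt18 moves from 2.61 to 0.18 and Krt7 from 0.25 to -0.28 when that library is left out, while 5430421N21Rik and Krt13 are at 6.28 and 2.26. Krt86 is not drawn, since its controls are all at 0.

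Krt18, Krt20 and Krt7 were highest in NR4A1 overexpression replicate 2. 5430421N21Rik and Krt13 were highest there too, at 23.2 and 6.49 CPM, but with 20.9 and 5.33 CPM in the next library. Krt18 had 8, 164 and 14 counts under NR4A1 overexpression and 21, 8 and 2 in the controls, so that replicate 2 was 8.04 times the next library in CPM. Its log2 fold change was 2.61 (SE 1.23) with all libraries and 0.18 without replicate 2. Krt20, a keratin of intestinal and urothelial cells, had 38 counts in replicate 2 and 0 in the other 5 libraries, and was not tested. Krt7, a type II keratin of ductal and airway epithelia, had 26, 108 and 64 counts against 63, 48 and 62, and its log2 fold change of 0.25 (SE 0.431) became -0.28 without replicate 2.

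That library is the one in which markers of other cell types were high. All 5 smooth muscle markers, 6 of 7 endothelial and 6 of 8 fibroblast markers were highest there, with Acta2 at 3841 counts against 3 to 15 elsewhere, Cdh5 at 419 against 0 and Col1a1 at 4189 against 84 to 303. Vector control replicate 1 had the second highest CPM of Krt18, with 21 counts, and held the 303 counts of Col1a1. The part of these other markers in Krt18, Krt20 and Krt7 was not tested, and in bulk RNA more cells of a type and more RNA per cell cannot be told apart. For 5430421N21Rik, Krt13 and Krt86 the other 2 NR4A1 libraries were on their own above all controls, and without replicate 2 the log2 fold changes of 5430421N21Rik and Krt13 were 6.28 and 2.26.

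The promoter windows were searched for the monomer element of NR4A1. RefSeq promoter windows (GRCm38.p6, 250 bases before to 50 after the start) were found for 34 of the 48 genes, 6 of the 10 keratins with at least 10 counts, and none for 5430421N21Rik, Krt86, Krt80 or Krt19. AAAGGTCA, searched on both strands, was in 1 of the 34, that of Krt20, and in 1.51% of all 32851 windows. The 30 bases around it are shown, 5′ to 3′ on the gene's strand, with the element in capitals. It ends 17 bases before the annotated start.
Krt20, chr11:99438160-99438189, minus strand: tgaactctataAAAGGTCAtctccacagca

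Krt20 was counted in 1 of the 3 NR4A1 libraries alone, so the match is a description of these letters. The windows of Krt13, Krt18, Krt7, Krt8 and Krt10 did not hold them.

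The remaining keratins of stratified epithelia were close to 0. Krt5 and Krt14, the basal pair, had at most 1 and 3 counts in a library. Krt17 had 5 counts in vector control replicate 2 and 0 elsewhere, Krt78 had 4 in NR4A1 overexpression replicate 1 and 1 in vector control replicate 3, and Krt15 had 1 to 3 in every library. Krt42 had at most 2, as did Krt23, a keratin of simple epithelia. No statement on their difference was possible at this depth.

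The type I cluster on chromosome 11 spans 99232761 to 100269871. Within 500 kb of it lie 96 other genes, 31 of them tested, with 0 past the threshold in either direction by edgeR's quasi-likelihood test with Benjamini-Hochberg adjustment. All 31 lay outside the cluster itself. Their log2 fold changes lay between -0.66 and 0.55, with a median of -0.07. The lowest, Rab5c, an endosomal GTPase named here after its value was seen, was at 156 ± 10.6 against 247 ± 14.9 CPM (adjusted p = 0.0427), which is under 2-fold. The nearest tested genes were Smarce1, a chromatin remodelling subunit 1.74 kb before the cluster, with a log2 fold change of 0.00 (SE 0.0706, adjusted p = 0.997, with either sign over the alternatives), and Gm12349, 21.8 kb beyond it, with -0.52 (SE 0.378, adjusted p = 0.888).

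Other intermediate filament genes did not pass the threshold. Of 18 listed, 8 were tested, with log2 fold changes of -0.22 to 0.56, a median of -0.05 and a smallest adjusted p of 0.830 in edgeR's quasi-likelihood test. Vim, the filament of mesenchymal cells, was at 782 ± 212 CPM under NR4A1 overexpression and 697 ± 24.1 in the controls, with a log2 fold change of 0.17 (adjusted p = 0.923) that was -0.08 without NR4A1 overexpression replicate 2. Lmna, which encodes the nuclear lamins A and C, was at 229 ± 38.0 against 248 ± 4.21 CPM (log2 fold change -0.11, adjusted p = 0.923).

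Partners that anchor or bind keratin filaments and regulators of keratin genes gave the same count of 0. Of 18 listed partners 13 were tested, with a median log2 fold change of -0.08, a range of -0.42 to 0.22 and a smallest adjusted p of 0.178 by edgeR's quasi-likelihood test. Dst, the hemidesmosomal linker dystonin, was at 494 ± 124 against 425 ± 120 CPM (adjusted p = 0.938), and Pnn, a desmosome-associated and splicing protein, at 255 ± 21.4 against 265 ± 1.34 (adjusted p = 0.951), with either sign over the alternatives. Of 21 regulators 12 were tested, with a median of -0.08, a range of -0.71 to 0.23 and a smallest adjusted p of 0.724. Hoxc13, Foxn1, Msx2, Gata3, Foxe1, Trp63, Grhl2, Ovol1 and Tfap2c had too few counts to test, so their difference is not known. Klf4, a factor of epithelial differentiation, was at 173 ± 7.84 against 194 ± 7.83 CPM (adjusted p = 0.776), and Cux1, a homeodomain factor, at 175 ± 12.6 against 175 ± 12.9 (adjusted p = 0.9997, with either sign over the alternatives). By an unadjusted p with the 2-fold threshold, these lists and both sets of neighbours other than Nr4a1 also gave 0 genes.

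**Figure D4:**
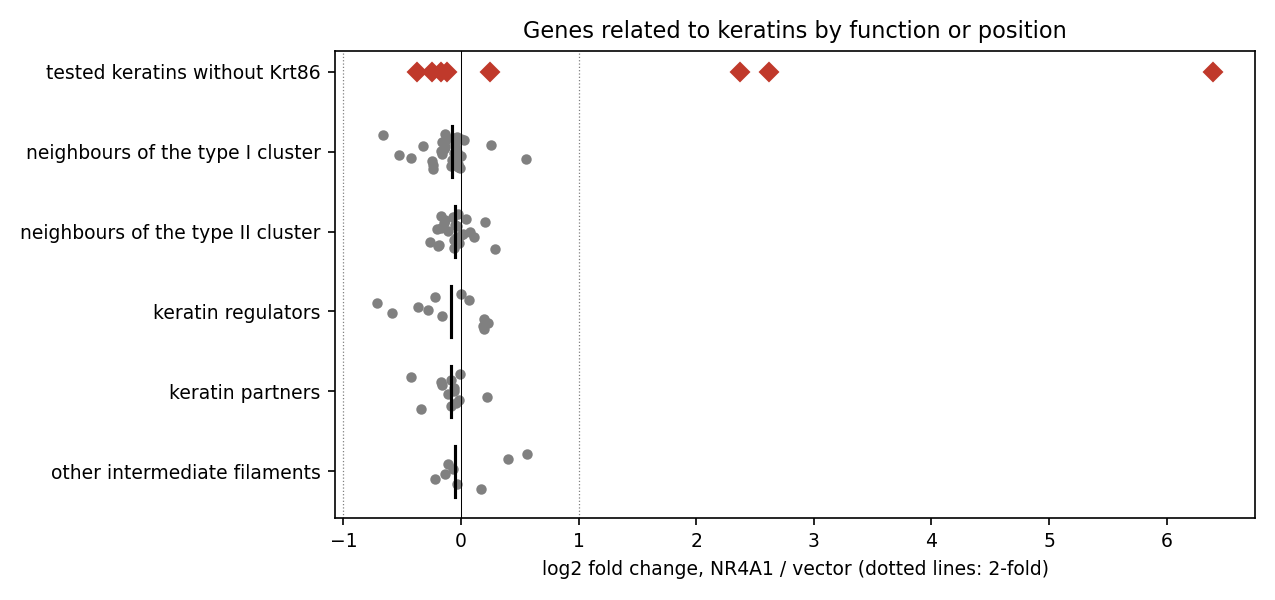
Log2 fold change, NR4A1 over vector, of the tested genes of each list, 1 point per gene, with the list's median as a black bar and the 2-fold limits dotted. The related genes and neighbours lie inside the 2-fold limits, between -0.71 and 0.56. Of the 8 keratins drawn, which the same contrast chose, 5430421N21Rik, Krt18 and Krt13 lie beyond 2-fold. Krt18 is at 0.18 without NR4A1 overexpression replicate 2. Nr4a1 and Krt86 are not drawn.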

How the data were processed

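MLE-12 libraries were prepared from total RNA with a strand-specific kit. The authors deposited raw read counts and FPKM values for every gene in each library. Per the submitters' processing notes, HISAT2 2.0.4 and GRCm38.p4 were used. The counting program, the annotation and the handling of multi-mapped reads are not given in the sources used here. The FPKM values the authors deposited equal the count divided by the library total and a fixed gene length (median deviation 6.01e-05% over 10738 genes).

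Counts were fitted with edgeR 4.0.16 (TMM, filterByExpr, quasi-likelihood test, Benjamini-Hochberg adjustment over 12941 genes) in R 4.3.3, on all 6 libraries with group as the only term. The threshold was an adjusted p under 0.05 and at least 2-fold. All 48 keratins were accounted for, and those with at least 10 counts in a library are given per library. Of each related list, the genes past the threshold and the 2 with the highest mean CPM are named, and of the neighbours Nr4a1, those past the threshold and the nearest tested gene on each side. Folds against controls at 0 used 3 counts per library. The keratins and the lists were chosen with earlier results of these data known. The labels number the replicates but do not say whether they were separate cultures, so p-values measure the spread between these libraries. Library pairs within a group differed by more than sampling noise (chi-square per degree of freedom 9.36 to 41.8). Alternatives were DESeq2 1.42.0, median-ratio size factors, library totals, no filter, no fold threshold, an unadjusted p, limma 3.58.1 on log2(FPKM + 1) where the mean FPKM was at least 1 in a group, the replicate number as a block and each library left out. Names and coordinates were compared with GENCODE M21, which holds all 48 identifiers, 32 at identical coordinates and the others within 2127 bases. Scripts were tested on simulated counts.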

Additional observations from a re-analysis of the deposited data

How the results depend on the processing

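Over the whole table, 22 genes were higher under NR4A1 overexpression, against 71 with DESeq2, 144 by an unadjusted p, 7 with limma on log2(FPKM + 1), 5 with the replicate number as a block and 3 to 25 with a library left out. Against 0 lower genes there were 2 with DESeq2, 17 by an unadjusted p, 1 without a fold threshold and 0 to 3 with a library left out. The 2 keratins past the threshold were 3 with DESeq2 and by an unadjusted p, which added Krt86, 1 with the replicate block and 1 to 2 with a library left out. In the block fit and in 5 of the 6 leave-one-out fits Krt13 was the gene lost. Same-numbered libraries deviated together weakly (correlations 0.02, 0.05 and 0.18), and those with different numbers had correlations of -0.30 to 0.23. So few libraries cannot show whether those of the same number were handled together. On the log2(FPKM + 1) scale, which understates changes of low genes, 5430421N21Rik was at 3.28 and Krt13 at 1.30. Krt18 ran from 0.18 to 3.63, Krt7 from -0.28 to 0.60 and Krt10 from -0.48 to 0.15 with a library left out. No tested keratin other than Krt7 and Krt10 changed sign under any alternative.

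Without a fold threshold 1 neighbour was lower, Rab5c at a log2 fold change of -0.66 (1 lower gene against 0). Its adjusted p was 1.55e-08 with DESeq2 and 0.0673 with limma. In edgeR's quasi-likelihood test it was 0.0506 without the filter and 0.0754 with the replicate block. With a library left out, the same test gave 0.0402 to 0.229. It stayed below 0.05 with median-ratio size factors and with library totals. Some related genes that never passed the threshold changed sign near 0. With a library left out, Vim ran from -0.076 to 0.30, Pnn from -0.11 to 0.0072, Cux1 from -0.059 to 0.055, Atg101 from -0.34 to 0.0020, Eif4b from -0.042 to 0.0082 and Smarce1 from -0.026 to 0.019. Cux1 was at -0.00012 with DESeq2, -0.021 with library totals, -0.00046 without the filter and -0.018 with limma, and Smarce1 at -0.018 with library totals and -0.017 with limma. Depth limits the 39 untested keratins, 28 of which had no counts, except that Krt20 had 38 counts in 1 library and 0 elsewhere.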
